A study of Mus musculus with 8 samples.

Results

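The 9 genes Gria1 to Gria4 and Grik1 to Grik5 encode the subunits of the AMPA and kainate receptors, and their transcripts were followed in mouse striatum. Every probe set that the platform annotation assigned to exactly 1 gene with one of these symbols was taken, which gave 18 of the 45037 probe sets tested, 10 for AMPA and 8 for kainate subunits, and 9 of the 18193 genes tested. The striata came from 4 CHL2 mutant mice and 4 wild-type mice, all aged 22 months and all from a C57BL/6 X CBA F1 hybrid background. CHL2 mice model Huntington's disease: 150 CAG repeats, derived from the first exon of the human disease gene, were placed in the mouse's own copy of that gene, whose own promoter therefore drives it. Both copies carry the expansion here. The mutants were mice 141, 153 and 154, which were female, and 191, which was male, while the wild-type mice were 161, which was female, and 170, 180 and 200, which were male. Each mouse gave 1 Affymetrix Mouse Genome 430 2.0 array, and values are log2 signals per probe set.

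AMPA receptors are tetramers that carry most of the fast excitatory current at central synapses. GluA2, the product of Gria2, is normally altered by RNA editing in its pore and then makes the channel nearly impermeable to calcium. Kainate receptors are related tetramers in which GluK1, GluK2 or GluK3 can form channels alone, while GluK4 and GluK5 need one of those partners. They sit on both sides of the synapse, where they carry slow currents and tune transmitter release. Medium spiny neurons, the output cells of the striatum, receive glutamate from cortex and thalamus through these receptors.

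Array medians lay between 4.95 and 4.98. The striatal markers Penk and Drd2, which encode the enkephalin precursor and a dopamine receptor, were bright in all mice, at 10.44 to 10.83 and 8.79 to 9.14 in mutants, and 12.26 to 12.41 and 10.29 to 10.36 in wild-type mice. Wild-type mouse 170 stood apart in RNA quality: its 3' minus 5' difference was 1.37 for the Gapdh controls and 2.65 for the beta-actin controls. The mutants had 0.32 to 0.43 and 1.23 to 1.51, and wild-type 161, 180 and 200 had 0.32 to 0.34 and 1.36 to 1.43. Values without it are given where, with sex in the fit, they change the call of a subunit gene or the count of a marker list. Each mouse number was taken as 1 animal, and having 4 of each genotype limits the precision.

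Of the 9 subunit genes, 4 were lower and 0 were higher in CHL2 striatum: Grik2, Gria3, Gria2 and Grik3, in order of adjusted p. Over all genes tested, 12.4% changed, 6.01% lower and 6.4% higher. The same 4 genes were the ones whose groups did not overlap, all with the mutants below. Of all genes, 9.27% had that pattern and 11.4% had the opposite one. The median log2 difference of the 9 was -0.31, against 0.01 over all genes, and 7 of the 9 lay below 0. These differences are CHL2 minus wild type, adjusted for sex, and a gene was said to change where limma's adjusted p was under 0.05. The count of 4 was 1 without mutant 191 and 2 without wild-type 161, each the single mouse of its sex in its group, and 3 or 4 without any other mouse. With no sex term it was 3 or 4 whichever mouse was left out. In whole tissue, fewer cells of a type and less RNA per cell cannot be told apart.

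**Figure D1:**
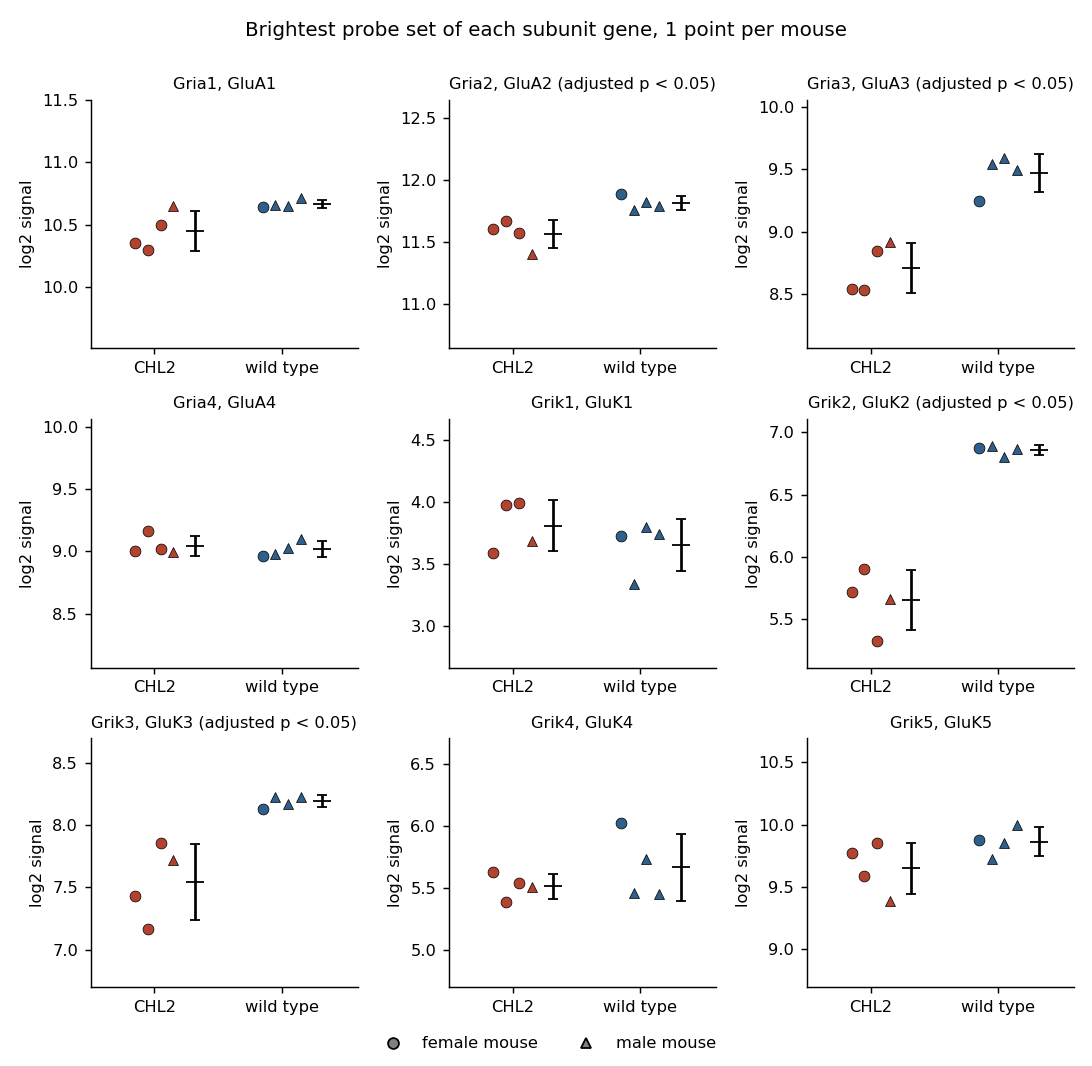
Log2 signal of the brightest probe set of each subunit gene in each mouse, with the mean and SD of each group (n = 4) at its right, mutants left of wild-type mice; every panel spans the same height in log2 units. The mutants lie wholly below the wild-type mice in the panels of Gria2, Gria3, Grik2 and Grik3.

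The start regions of 6 of the 9 genes were found in the RefSeq promoter table for GRCm38.p6: Gria2, Gria4 and Grik2 to Grik5. Those of the fallen genes Gria2, Grik2 and Grik3 are printed below so that their make-up can be compared, as the 250 bases before each gene's start, 5' to 3' on the gene's own strand. Gria2 (chr3:80802836-80803085, minus strand) and Grik2 (chr10:49788755-49789004, minus strand) have a GC content of 64.8% and 62.8%, and Grik3 (chr4:125490446-125490695, plus strand) has 82%, against a median of 52.4% over 32851 start regions. Capitals mark matches on either strand to the GC box GGGCGG, the core of the Sp1 binding site, or to AGCACCNNGGACAGC, core letters of RE1, the element bound by the neuronal gene repressor REST.
Gria2: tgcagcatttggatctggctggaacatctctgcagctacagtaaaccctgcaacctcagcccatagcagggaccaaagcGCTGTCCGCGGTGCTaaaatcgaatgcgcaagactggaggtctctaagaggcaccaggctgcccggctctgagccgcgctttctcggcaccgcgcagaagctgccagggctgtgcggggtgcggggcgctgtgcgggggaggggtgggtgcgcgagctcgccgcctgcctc
Grik2: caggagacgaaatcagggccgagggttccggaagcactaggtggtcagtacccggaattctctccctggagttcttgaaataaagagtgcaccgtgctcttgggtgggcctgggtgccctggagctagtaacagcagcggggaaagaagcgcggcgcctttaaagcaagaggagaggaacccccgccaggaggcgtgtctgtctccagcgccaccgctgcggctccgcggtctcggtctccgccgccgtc
Grik3: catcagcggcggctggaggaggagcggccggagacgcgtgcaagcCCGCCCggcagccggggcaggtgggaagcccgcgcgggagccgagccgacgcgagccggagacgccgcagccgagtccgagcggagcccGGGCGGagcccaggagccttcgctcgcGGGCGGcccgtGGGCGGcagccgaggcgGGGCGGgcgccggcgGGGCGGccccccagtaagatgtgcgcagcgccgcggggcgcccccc
The Gria2 region held 1 RE1 core, read on the opposite strand, and no GC box. The RE1 letters were found in 9 of the 32851 regions (0.0274%), and in none of the other 5 subunit regions. These letters were chosen after the Gria2 region had been read. Grik3 held 6 GC boxes and Grik2 held 0 of either motif, while 32.7% of all regions held a GC box. Of the subunit genes not past the threshold, Grik5 held 2 GC boxes, Grik4 held 1 and Gria4 held 0. A match of letters is no measure of binding, and none was measured here.

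Grik2, which encodes the pore-forming kainate subunit GluK2, had the lowest adjusted p of the 9 genes. Its brightest probe set, 1457683_at, stood at 5.72, 5.90, 5.32 and 5.66 in mutants 141, 153, 154 and 191, against 6.87, 6.89, 6.80 and 6.87 in wild-type mice 161, 170, 180 and 200. All mutants lay below all wild-type mice, and the wild-type values were close together while the mutant values were spread. The means were 5.65 ± 0.24 in mutants and 6.86 ± 0.04 in wild-type mice (SD, n = 4 each). Grik2 was 2.31-fold lower in the mutants (log2 difference -1.21, SE 0.13, 95% interval -1.50 to -0.92, adjusted p = 0.000281). The call held with each mouse left out in turn, with the log2 difference of Grik2 between -1.27 and -1.13. The mutant values of Grik2 were dim, not far above the array medians of 4.95 to 4.98, so the size of the fold is less certain.

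A second Grik2 probe set, 1425790_a_at, whose suffix marks probes shared by several transcripts of 1 gene, read 5.07, 5.13, 5.87 and 5.78 in the mutants against 6.15, 5.77, 5.95 and 6.58 in the wild-type mice. Mutants 154 and 191 lay above wild-type 170 on it and below the other wild-type mice. Its log2 difference was -0.56 (SE 0.25, adjusted p = 0.266 over all probe sets), with an interval of -1.12 to 0.01 that meets that of 1457683_at. Whether the probe sets of Grik2 differ in their response was not tested. Which isoform each one reads was not looked up.

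Grik3 encodes GluK3, a pore-forming kainate subunit of low glutamate sensitivity. Probe set 1440177_at read 7.43, 7.17, 7.86 and 7.72 in mutants 141, 153, 154 and 191, against 8.13, 8.23, 8.17 and 8.23 in wild-type mice 161, 170, 180 and 200. The groups did not overlap, and the mutants spread over a wider range than the wild-type mice. Grik3 was 1.48-fold lower (log2 difference -0.57, SE 0.15, interval -0.90 to -0.24, adjusted p = 0.0295). Tested among all probe sets instead of 1 per gene, the same signal of Grik3 missed the threshold with an adjusted p = 0.0554.

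The Grik3 call was lost without any 1 of 5 mice when sex stayed in the fit: 191 (adjusted p = 0.150), 161 (0.261), 170 (0.0504), 180 (0.0504) or 200 (0.0567). With no sex term it held without each mouse in turn, at log2 differences of -0.75 to -0.52. The dimmer Grik3 probe set 1427709_at ranged from 5.04 to 5.10 in the mutants and from 4.94 to 5.45 in the wild-type mice, which overlap, with a log2 difference of -0.18 (adjusted p = 0.470). Averaged over both probe sets, Grik3 had an adjusted p = 0.0520.

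The other kainate subunit genes did not pass the threshold. Grik5 encodes GluK5, the high-affinity partner subunit, and read 9.77, 9.58, 9.85 and 9.39 in the mutants against 9.88, 9.72, 9.85 and 10.00 in the wild-type mice. Male mutant 191 was lowest, and the groups overlapped. The log2 difference of Grik5 was -0.31 (interval -0.56 to -0.06, adjusted p = 0.110), and it passed with a trended and robust prior (adjusted p = 0.0388).

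Grik4, for the other high-affinity subunit GluK4, had a log2 difference of -0.27 (interval -0.55 to 0.00499, adjusted p = 0.202). Its values were 5.63, 5.38, 5.54 and 5.51 in the mutants and 6.02, 5.46, 5.73 and 5.45 in the wild-type mice. Female wild-type mouse 161 was the highest, and without it the Grik4 difference was -0.04. Grik1, for GluK1, had 2 probe sets on which all 8 mice lay below 5, the log2 of 32 that served as a floor in an alternative, so no change in it could be read at this signal. Those values of Grik1 ran from 3.38 to 4.00 in the mutants and from 3.34 to 3.80 in the wild-type mice.

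Among the AMPA subunits, Gria3 showed the largest difference. It encodes GluA3, which pairs mainly with GluA2. Probe set 1434728_at read 8.54, 8.53, 8.84 and 8.92 in mutants 141, 153, 154 and 191, against 9.25, 9.54, 9.59 and 9.50 in wild-type mice 161, 170, 180 and 200. The groups did not overlap, and mutant 191 and wild-type 161 lay nearest each other. Gria3 was 1.54-fold lower (log2 difference -0.62, SE 0.10, interval -0.84 to -0.40, adjusted p = 0.00275).

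The second Gria3 probe set, 1420563_at, read 6.63, 6.74, 7.07 and 6.98 in the mutants against 7.35, 7.32, 7.65 and 7.40 in the wild-type mice. It was also lower with no overlap, at a log2 difference of -0.50 (SE 0.13, adjusted p = 0.0483 over all probe sets). The call of Gria3 1420563_at was lost without any 1 of mice 141, 153, 191, 161, 180 and 200 with sex in the fit, at adjusted p of 0.0768, 0.0800, 0.265, 0.333, 0.0851 and 0.0832. The call of the brightest Gria3 probe set among genes was lost without mutant 191 alone of the 8 mice (log2 difference -0.61, adjusted p = 0.0557).

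Gria2 encodes GluA2. The probe set 1421970_a_at read 11.61, 11.67, 11.57 and 11.40 in mutants 141, 153, 154 and 191, against 11.89, 11.76, 11.83 and 11.79 in wild-type mice 161, 170, 180 and 200. All mutants lay below all wild-type mice, and male mutant 191 was lowest. Gria2 was 1.26-fold lower (log2 difference -0.33, SE 0.08, interval -0.50 to -0.16, adjusted p = 0.0195), the smallest of the 4 differences that passed.

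A second Gria2 probe set, 1434146_at, had a like log2 difference of -0.38 (SE 0.09, adjusted p = 0.0408 over all probe sets), with mutants at 10.41 to 10.72 and wild-type mice at 10.83 to 11.01. That call was lost without any 1 mouse, with sex in the fit (adjusted p 0.0522 to 0.424) or without it (0.0573 to 0.144). The third, 1453098_at, overlapped between the groups, at 8.31 to 8.65 in mutants and 8.32 to 8.79 in wild-type mice (log2 difference -0.21, adjusted p = 0.445). The call of Gria2 was lost without mutant 191 (log2 difference -0.27, adjusted p = 0.237) and without wild-type 161 (-0.39, adjusted p = 0.0889). With no sex term Gria2 passed on all 8 mice (-0.25, adjusted p = 0.0485) and in 1 of the 8 fits that leave out a mouse.

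Gria1, which encodes GluA1, the subunit moved into synapses in many forms of plasticity, did not pass. Its probe set 1448972_at read 10.35, 10.29, 10.50 and 10.65 in the mutants against 10.64, 10.66, 10.65 and 10.72 in the wild-type mice. The 3 female mutants lay below every wild-type mouse, while male mutant 191 lay among them. The log2 difference of Gria1 was -0.14 (interval -0.34 to 0.06, adjusted p = 0.381), and on the other probe set of Gria1, 1435239_at, it was -0.13 (adjusted p = 0.468). Without mutant 191 and with no sex term, Gria1 passed at -0.29 (adjusted p = 0.0374). In that fit the 3 mutants left are all female and 3 of the 4 wild-type mice are male.

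Gria4, for the fast-gating subunit GluA4, had nearly equal group means on its brightest probe set, 9.05 ± 0.08 in mutants and 9.02 ± 0.06 in wild-type mice (SD, n = 4 each). The log2 difference of Gria4 was 0.03 (interval -0.16 to 0.22, adjusted p = 0.886), so a fall as large as that of Gria3 lies outside its interval. Another Gria4 probe set, 1440891_at, read 6.60, 6.43, 6.65 and 6.85 in the mutants and 6.43, 5.92, 6.61 and 6.13 in the wild-type mice, with a log2 difference of 0.38 (interval -0.01 to 0.77, adjusted p = 0.276). The groups overlapped on it, with wild-type mice 170 and 200 the lowest. On the third Gria4 probe set all 8 values lay below 5.

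**Figure D2:**
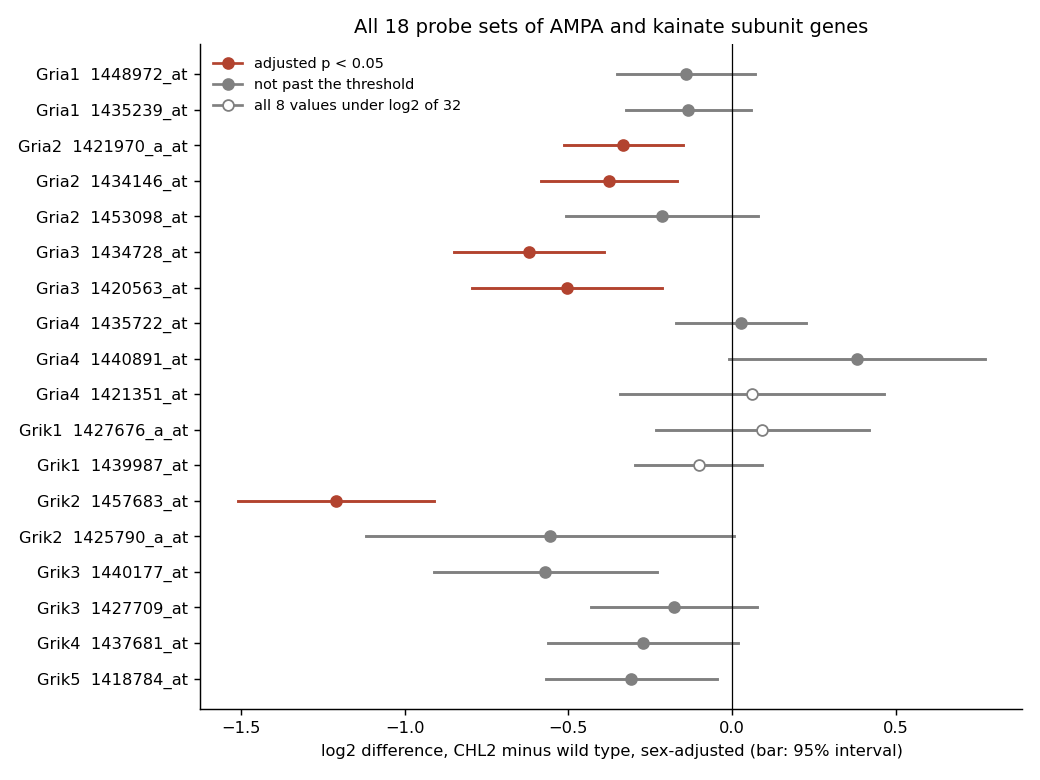
Sex-adjusted log2 difference (CHL2 minus wild type) and 95% interval of each of the 18 probe sets, from the fit over all 45037 probe sets; filled red points passed an adjusted p of 0.05 and open points had all 8 values below 5. The 5 red points belong to Gria2, Gria3 and Grik2.

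Counted over probe sets, 5 of the 18 were lower and 0 higher, against 3.44% and 3.26% of all probe sets. The groups did not overlap on 6 of the 18, each with the mutants lower, while 7.07% of all probe sets had that pattern and 8.34% the opposite one. The count of 5 was 2 without mutant 141, wild-type 180 or wild-type 200, 1 without mutant 191 or wild-type 161, and 4 without 153, 154 or 170. For Gria1, Gria2 and Gria3 all probe sets had differences of 1 sign. Grik1 alone of the genes with several probe sets had differences on both sides of 0, and its probe sets are the dim ones.

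Of 4 differences between subunits taken within each mouse, 2 did not overlap between the groups. The value of Gria3 minus that of Gria1 lay between -1.81 and -1.65 in the mutants and between -1.39 and -1.06 in the wild-type mice, with no overlap. The size of such an offset depends on the probes, and only its comparison between groups can be read. The value of Gria3 minus that of Gria2 ran from -3.14 to -2.49 in the mutants and from -2.64 to -2.21 in the wild-type mice, and that of Gria2 minus Gria1 from 0.75 to 1.37 in the mutants and from 1.08 to 1.25 in the wild-type mice, and both overlap. Among kainate subunits, Grik2 minus Grik5 ran from -4.52 to -3.68 in the mutants and from -3.13 to -2.83 in the wild-type mice, with no overlap. In both pairs with no overlap the first gene had passed and did not overlap by itself, while the second had not passed. They therefore largely restate the calls of Gria3 and Grik2. No test was made of these 4 differences, and the share over all gene pairs was not counted.

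The effect of genotype on the 9 genes was also looked at by sex, with 3 female mutants against wild-type 161 and mutant 191 against 3 male wild-type mice. Grik2 had log2 differences of -1.22 in females and -1.20 in males, and Gria3 had -0.61 and -0.63. Grik4 had -0.51 and -0.04, and Grik5 had -0.15 and -0.47. In the interaction test of limma, 0 of the 9 genes passed (adjusted p 0.969 to 0.997), 0 of them had an unadjusted p under 0.05, and 1 of all genes passed, with 917 at an unadjusted p under 0.05. With 1 mouse in 2 of the 4 combinations, this test had little to go on.

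**Figure D3:**
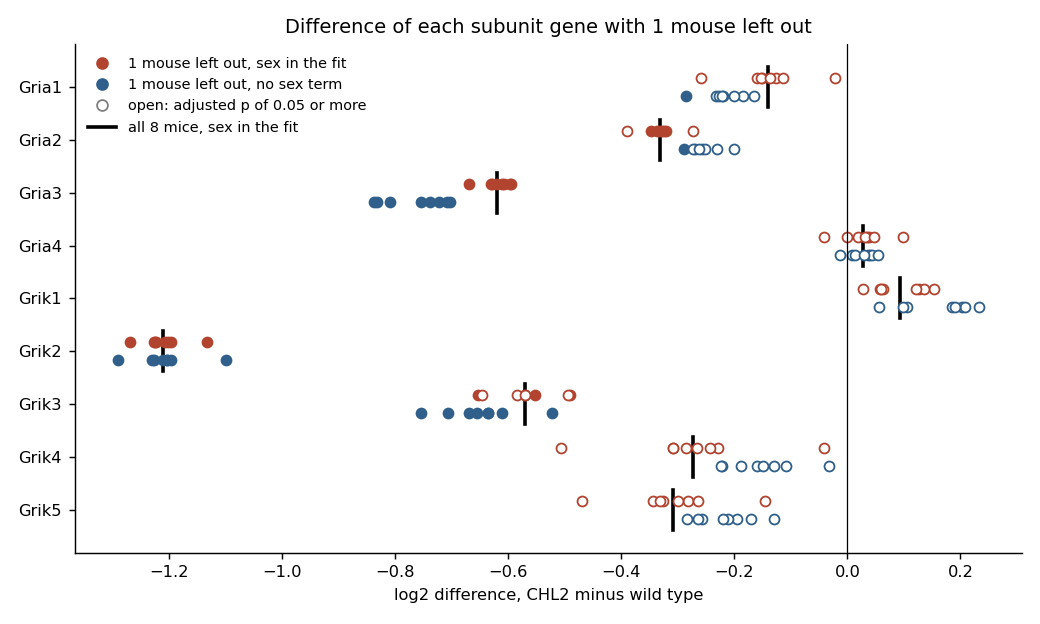
Log2 difference (CHL2 minus wild type) of each subunit gene with 1 mouse left out, with sex in the fit (red, upper row) or without it (blue, lower row); filled points passed an adjusted p of 0.05 and black bars give the value on all 8 mice. Grik2 stayed past the threshold in all 16 fits, while the Gria2 points without a sex term are mostly open.

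By mean absolute difference of mouse values after each gene's own mean was subtracted, over the 8 mice, the genes most like Grik2 were Slc24a4, Lmo2 and Kcnip2. They encode a sodium, potassium and calcium exchanger, a LIM domain protein of transcription complexes and a potassium channel partner protein. Their mean distances from Grik2 were 0.05, 0.09 and 0.10 log2 units, and their log2 differences between the groups were -1.14, -0.99 and -1.19. The choice used these same mouse values, so group differences near that of Grik2 follow from the choice itself.

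AMPA receptors in the brain are bound to auxiliary subunits that set their gating and delivery. Of 16 such genes listed, 14 were measured, 5 were lower and 0 higher, with a median log2 difference of -0.28. Gsg1l, whose product slows the recovery of AMPA receptors from desensitisation, read 7.56 to 7.72 in the mutants and 9.14 to 9.38 in the wild-type mice, 2.91-fold lower (SE of the log2 difference 0.09, adjusted p = 5.3e-06). The groups were far apart, and the call held without each mouse in turn. Cacng4 and Cacng5, transmembrane AMPA receptor regulatory proteins, were 1.69-fold and 1.30-fold lower, and Shisa9 and Shisa7, of a further auxiliary family, 1.62-fold and 1.46-fold (adjusted p 0.000433, 0.0132, 0.000756 and 0.00457).

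Cacng2, for stargazin, the prototype of the family of Cacng4 and Cacng5, had a log2 difference of -0.31 (adjusted p = 0.122), and Cacng8 and Cnih2 had -0.13 (0.562) and -0.09 (0.577). Leaving out mutant 191 brought the count of lower auxiliary genes to 3, with the calls of Cacng5 and Shisa7 lost. That count was 4 without wild-type 161, 6 without mutant 153 and 5 without any other mouse. It was 5 with no sex term on all mice. Shisa8 and Prrt2 were not analysed here.

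Of 24 genes for assembly, scaffolding and trafficking of AMPA receptors, 23 were measured, 10 were lower and 2 higher, with a median of -0.18. Akap5, an anchor for kinases and a phosphatase at the receptor, read 8.66 to 8.93 in the mutants and 9.56 to 9.80 in the wild-type mice, and was 1.81-fold lower (adjusted p = 0.000326). Nptx2 and Nptx1, secreted pentraxins that cluster AMPA receptors, were 2.05-fold and 2.88-fold lower (adjusted p = 0.000214 and 0.0180). The values of Nptx1 overlapped, at 6.52 to 8.69 in mutants and 8.21 to 8.84 in wild-type mice, and its call was lost without 161 or 191 (adjusted p = 0.0706 and 0.257) and with no sex term (0.0546).

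Lrrtm1, Lrrtm2 and Lrrtm3, postsynaptic adhesion proteins, were 1.92-fold, 1.39-fold and 1.50-fold lower (adjusted p = 0.000273, 0.0162 and 0.0360). Epb41l1, a link from GluA1 to actin, was 1.27-fold lower and Porcn, an acyltransferase also found with AMPA receptors, 1.30-fold (adjusted p = 0.0122 and 0.0438). The scaffold genes Gripap1 and Grasp were 1.31-fold and 1.25-fold lower (adjusted p = 0.0291 and 0.0447). Olfm2 and Olfm3, secreted proteins found in AMPA receptor complexes, were higher by 0.79 and 0.47 on the log2 scale (adjusted p = 0.00798 and 0.0186), with mutants at 6.21 to 6.74 and 8.09 to 8.27 and wild-type mice at 5.42 to 5.89 and 7.46 to 7.90.

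The count of 10 lower trafficking genes was 6 without mutant 141, 4 without mutant 191, 3 without wild-type 161 and 6 without wild-type 200. It was 8 or 9 without any other mouse, and that of the higher ones was 1 without 161 or 191. With no sex term on all mice, 8 trafficking genes were lower and 2 higher. With sex in the fit, the call of Grasp held only without 180, those of Gripap1 and Porcn only without 153, 154 or 170, and that of Lrrtm3 only without 154, 170 or 180. Their adjusted p reached 0.338 for Grasp, 0.282 for Gripap1, 0.253 for Porcn and 0.417 for Lrrtm3. Gripap1 was also lost with no sex term (0.0517), and Grasp with the arrays quantile normalized again (0.0674) or weighted (0.0551). Epb41l1 was lost without 191 (0.128) or 161 (0.113), Olfm3 without 191 (0.323), and Lrrtm2 and Olfm2 without 161 (0.285 and 0.151). With the probe sets of a gene averaged, Lrrtm2 had a log2 difference of -0.14 (adjusted p = 0.709), and the calls of Akap5 (0.0699), Epb41l1 (0.114), Olfm3 (0.0661) and Cacng5 (0.117) were lost as well. Mutant 154, the highest mutant for Nptx1, also had the highest level of cortical neuron markers described below, and the part of those cells was not tested. Nptxr was not analysed here.

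Among 9 listed partners of kainate receptors, 8 were measured, 4 were lower and 0 higher, with a median log2 difference of -0.41. Neto2 and Neto1, the auxiliary subunits of kainate receptors, were 2.23-fold and 1.52-fold lower (adjusted p = 6.35e-05 and 0.00132). Neto2 read 8.16 to 8.72 in the mutants and 9.57 to 9.83 in the wild-type mice, and the calls of both held without each mouse in turn. Kif17, a kinesin of dendrites, was 1.56-fold lower (adjusted p = 0.00573), and its call was lost without mutant 191 (0.146). Actn2, an actin cross-linker known best as a binding partner of NMDA receptors, was 2.39-fold lower (adjusted p = 2.08e-05). C1ql3, a secreted protein that recruits kainate receptors in hippocampus, had a log2 difference of -0.22 (adjusted p = 0.781). For the related C1ql2 all 8 values lay below 5, so no change in it could be read. Kctd12 was not analysed here.

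Grid1, for the delta receptor GluD1, had a log2 difference of -0.33 (adjusted p = 0.0563). With no sex term Grid1 was called lower on all mice and without each mouse in turn, except without wild-type 170. Of 3 RNA editing genes, 0 passed by limma and 1 had an unadjusted p under 0.05, Adarb1, whose enzyme edits the GluA2 pore site (log2 difference -0.27, adjusted p = 0.169). Editing itself was not measured.

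**Figure D4:**
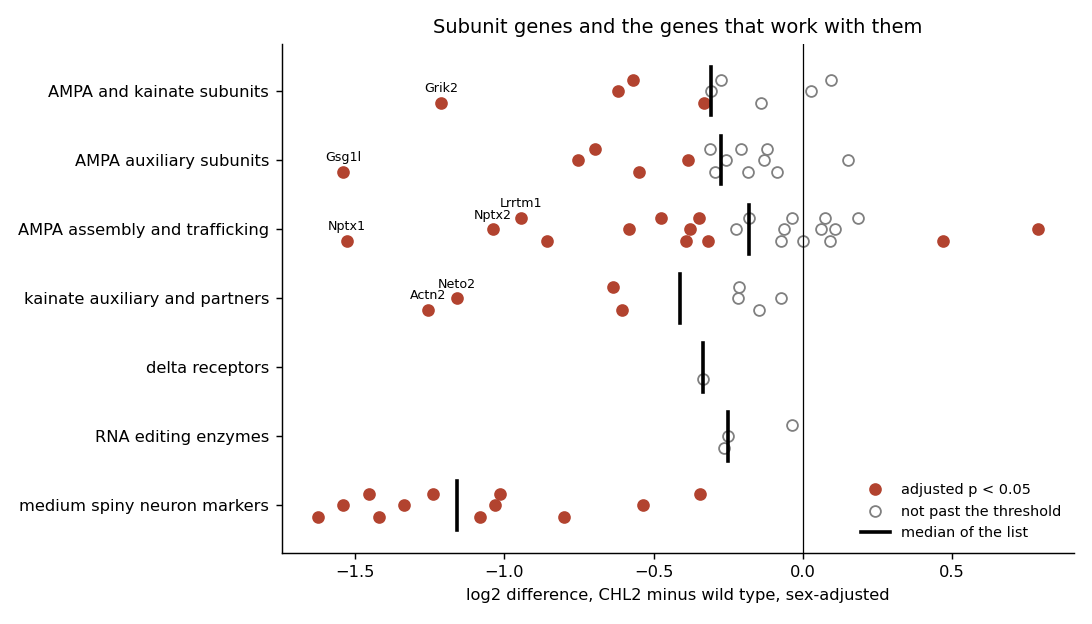
Sex-adjusted log2 difference (CHL2 minus wild type) of every measured gene of each list, with filled points past an adjusted p of 0.05 and a black bar at the list's median. All 12 medium spiny neuron markers and 4 of the 9 subunit genes are filled and lie left of 0.

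Markers of the main striatal neurons were lower in the same mice. All 12 measured medium spiny neuron markers of 14 listed were lower, with a median log2 difference of -1.16, and their mean level was 10.08 to 10.32 in the mutants and 11.35 to 11.46 in the wild-type mice. With sex in the fit, 10 of them were lower without wild-type 161, and 11 without mutant 191 or wild-type 180. Drd1, for a dopamine receptor, and Ppp1r1b, for the phosphoprotein DARPP-32, were 2.36-fold and 2.02-fold lower. The log2 difference of Grik2, -1.21, lay near that median and those of Gria3, Grik3 and Gria2 were nearer 0, a comparison that was not tested. Of 10 interneuron markers 2 were lower, and their mean level was 6.81 to 6.93 in the mutants against 6.99 to 7.08 in the wild-type mice. With sex in the fit, that count was 0 without wild-type 161, 2 without mutant 153 and 1 without any other mouse, 170 included.

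Other cell types could also carry these transcripts. Of 5 cortical neuron markers measured, 0 passed by limma, with a mean level of 4.62 to 6.44 in the mutants, highest in 154, and 5.20 to 6.09 in the wild-type mice. At an unadjusted p under 0.05 there were 3 of them, all lower, and without mutant 154 limma called 2 of the 5 lower. Astrocyte markers had 1 higher and 1 lower of 9 (mean level 9.87 to 10.00 in mutants, 9.96 to 10.10 in wild-type mice), oligodendrocyte markers 1 lower of 6 (10.89 to 11.01 in mutants, 10.91 to 11.14 in wild-type mice), and precursors 0 of 4 (6.68 to 6.76 in mutants, 6.58 to 6.76 in wild-type mice). With sex in the fit, 2 oligodendrocyte markers were lower without wild-type 170, 0 without wild-type 161 or mutant 191, and 1 without any other mouse. Without wild-type 180, 1 of them was also higher. Microglial markers had 0 of 7 (7.68 to 7.87 in mutants, 7.60 to 7.86 in wild-type mice), endothelial 0 of 5 (5.84 to 6.11 in mutants, 6.01 to 6.20 in wild-type mice), and thalamic 0 of 4, with every thalamic value under 5. At an unadjusted p under 0.05, limma gave 4 of the 10 interneuron, 5 of the 9 astrocyte and 4 of the 6 oligodendrocyte markers, and 0 precursor, 1 microglial, 2 endothelial and 1 thalamic markers. The interneuron, microglial and endothelial ones were lower and the thalamic one higher. Directions were mixed for astrocytes (Aqp4 and Gfap higher, Slc1a2, Fgfr3 and Slc4a4 lower) and oligodendrocytes (Mag and Cnp higher, Mobp and Cldn11 lower). The share of all genes at that unadjusted level was not counted. It is at least the 12.4% that passed the adjusted threshold, so these counts are no measure of change in a cell type. No marker is at 0, since the log2 signal has a background level. All 8 values lay under 5 for cortical Tbr1, precursor C1ql1, microglial Itgam and endothelial Pecam1 as well, so no change in them could be read. With sex in the fit, 0 astrocyte markers were higher without mutant 153 or wild-type 200, and 1 microglial marker was lower without wild-type 180. Leaving out 191 or 161 also changed the astrocyte counts, and leaving out 191 changed the endothelial one. With no sex term on all mice, astrocyte markers had 3 lower and 1 higher, oligodendrocyte 1 of each, microglial 1 lower and thalamic 1 higher. The part of these markers in the subunit differences was not tested.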

How the data were processed

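Striatal RNA of 8 mice was measured on 1 array per mouse. The deposited values are log2 signals per probe set. RMA and affy are named in the submitters' processing notes, with no version. RMA sets the arrays to 1 distribution and compresses differences of dim genes. The table holds 45101 probe sets, 64 of them controls, which were dropped. A single gene symbol was listed for 34945 of the 45037 kept, several for 932 and none for 9160, and only the first kind was named. Each gene was read from its brightest single-symbol probe set.

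Limma 3.58.1 in R 4.3.3 (lmFit and eBayes) was fitted with genotype and recorded sex over all 18193 genes, and again over all probe sets, with Benjamini-Hochberg adjustment. The fit was tested on simulated data. Named were the 9 members, list genes with an adjusted p under 0.05, Grid1, 3 genes most like Grik2, and Ppp1r1b, Drd1, Drd2 and Penk; other list genes named without a change were picked after their values were seen. Members and lists were chosen with earlier results of these data known. Alternatives left out sex, single mice or moderation, or changed the prior, scaling, filter, floor, weights, probe set summary or threshold.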

Additional observations from a re-analysis of the deposited data

Results flagged for a closer look

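A sample far from the other 3 of its group was looked for in 78 groups, the 18 subunit probe sets and the pathway genes past the threshold in each genotype, and 5 were found, where chance gives about 1 in 20. On Gria1 1435239_at, mutant 191 read 10.28, against 10.07 to 10.10 in the other mutants. On Gria4 1435722_at, mutant 153 read 9.17, with no other mutant above 9.02. On Grik1 1427676_a_at, wild-type 170, the mouse with the large 3' minus 5' difference, read 3.34, with the rest of its genotype at 3.73 to 3.80, all near background. For Actn2, mutant 191 read 7.63, against 7.30 to 7.35, and for Neto2, wild-type 161 read 9.57, against 9.79 to 9.83, each still on its own side of the other group. Mutant 191 is the single male mutant and 161 the single female wild-type mouse, so sex and animal cannot be told apart for them. A difference between the sexes in the effect of genotype passed for 0 of the 9 subunit genes in limma's interaction test, which has 1 mouse in 2 of its 4 combinations and cannot show that the sexes are alike.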

How the results depend on the processing

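Over 27 alternatives, Grik2 kept its call in all, Gria3 in 26, Grik3 in 19 and Gria2 in 17, with no change of sign in any of them. Their log2 differences ran from -1.29 to -0.88, -0.84 to -0.56, -0.75 to -0.37 and -0.39 to -0.20. The count of lower subunit genes was 4, and 2 at an adjusted p under 0.01. It was 5 with a trended and robust prior and 3 without moderation or with the probe sets of a gene averaged. In the other alternatives on all mice it stayed 4. Leaving out each mouse gave 1 to 4 with sex in the fit and 3 to 4 without it, and 0 were higher in any of these. Lower probe sets numbered 5, 3 without moderation and 2 at an adjusted p under 0.01. They numbered 4 with no sex term or with arrays centred on their medians, and 5 or 6 in the other alternatives on all mice. With each mouse left out they numbered 1 to 4 (4 in each such fit with no sex term). Over all genes 2258 passed, 1325 without moderation and 1029 at an adjusted p under 0.01. The other alternatives on all mice gave 1891 to 3218. With each mouse left out 702 to 2258 passed, or 1932 to 2497 with no sex term. The lowest counts with sex in the fit came without 191 and 161, each the single mouse of its sex in its group.

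Signs turned for values near 0 that never passed. The mean of probe sets gave Grik1 -0.00439. With sex in the fit, Gria4 was -0.000106 without 153 and -0.0417 without 161, Gria4 1421351_at was -0.00647 without 141 and -0.0211 without 170, and Grik3 1427709_at was 0.0281 without 161. With no sex term, Gria4 was -0.0136 without 153, Gria4 1421351_at was -0.0664, -0.000532 and -0.0872 without 141, 191 and 170, and Grik1 1439987_at was 0.0117, 0.0587, 0.0360 and 0.00451 without 153, 191, 161 and 170. With each mouse left out, these ran from -0.0417 to 0.0986 (Gria4), -0.0872 to 0.136 (Gria4 1421351_at), -0.147 to 0.0587 (Grik1 1439987_at) and -0.382 to 0.0281 (Grik3 1427709_at). The cause was not tested. No paired analysis was possible because the groups share no mouse number. At the floor and with dim features left out Grik1 gave no value. Signal near background limits what can be said of Grik1, Gria4 1421351_at and Grik3 1427709_at. Grik2 1457683_at and Grik4 were dim as well, at 5.32 to 5.90 and 5.38 to 5.63 in mutants. That limits what can be said of the size of their differences.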
